A study of Homo sapiens with 12 samples.

Results

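The INK4 and CIP/KIP families are the 2 families of proteins that inhibit cyclin-dependent kinases, and their genes were read here as the change in RNA after knockdown of ZRF1 in NT2/D1 cells. The genes were taken from the array platform's annotation by symbol, with CDKN2A, CDKN2B, CDKN2C and CDKN2D as the INK4 family and CDKN1A, CDKN1B and CDKN1C as the CIP/KIP family. Of these 7 listed genes, 6 had a probe, 3 in each family, among 18646 genes with a symbol. The 6 genes were measured by 10 probes, 2 each for CDKN2A, CDKN2B, CDKN1A and CDKN1B and 1 each for CDKN2D and CDKN1C. CDKN2C was matched to no probe by symbol, gene identifier or accession and was not analysed here.

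NT2/D1, also called NTERA2, is a human embryonal carcinoma line that can be driven towards neuronal fates by retinoic acid. Cells carrying a short hairpin against ZRF1 (shZRF1, the product of the gene DNAJC2) were set against cells carrying a random hairpin (shRandom), either after 3 h with 0.01 µM retinoic acid or untreated at 0 h. There were 3 biological replicates per time and 2 colours per array, and every replicate was run in both dye orientations, forward (knockdown in Cy5, control in Cy3) and swapped (the reverse), for a total of 12 arrays. The series' design text places the collections on 3 days, without saying which replicate number belongs to which day. Knockdown and control cells received the same treatment on every array, so each value is knockdown over control at 1 time, and no array set retinoic acid directly against its absence. The labels number the knockdown line differently from array to array in one field and give it a single name in another, and they do not say whether several hairpins or clones were used.

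The INK4 proteins bind the kinases CDK4 and CDK6 and keep them from pairing with D-type cyclins, and the CIP/KIP proteins bind complexes of cyclins with CDK2 and other kinases. Both families thereby restrain the phosphorylation of the retinoblastoma protein and the release of E2F factors at the entry to S phase. The locus that holds CDKN2A and CDKN2B is a textbook target of Polycomb repression, and ZRF1 is a chaperone partner described as recognising ubiquitinated histone H2A and displacing Polycomb complexes from chromatin.

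All coordinates are those of GRCh38.p14 from RefSeq. CDKN2A lies on chromosome 9 from 21967752 to 21995324 and CDKN2B beside it from 22002903 to 22009313. CDKN2D lies on chromosome 19 from 10566460 to 10568979. CDKN1A lies on chromosome 6 from 36676463 to 36687332, CDKN1B on chromosome 12 from 12717368 to 12722369 and CDKN1C on chromosome 11 from 2883218 to 2885775. The 3 measured INK4 genes were those with calls at single times, and CDKN2A has separate starts for p16INK4a and for ARF that the deposited values do not tell apart, so the 250 bases before each of their 4 starts are shown, 5′ to 3′ on the gene's strand, with searched motifs in capitals. The sequences are from RefSeq.
CDKN2A downstream start (p16INK4a), chr9:21974858-21975107, minus strand: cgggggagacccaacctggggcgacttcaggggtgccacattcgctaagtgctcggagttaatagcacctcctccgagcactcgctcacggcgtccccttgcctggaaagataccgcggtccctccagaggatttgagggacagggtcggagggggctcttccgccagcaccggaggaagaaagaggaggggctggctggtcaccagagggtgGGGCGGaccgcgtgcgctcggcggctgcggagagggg
CDKN2A upstream start (ARF), chr9:21995325-21995574, minus strand: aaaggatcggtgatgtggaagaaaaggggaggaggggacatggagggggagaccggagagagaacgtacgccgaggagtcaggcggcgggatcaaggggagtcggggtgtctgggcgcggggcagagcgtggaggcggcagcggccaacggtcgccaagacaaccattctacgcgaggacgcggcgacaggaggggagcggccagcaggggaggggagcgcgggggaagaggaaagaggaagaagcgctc
CDKN2B, chr9:22009306-22009555, minus strand: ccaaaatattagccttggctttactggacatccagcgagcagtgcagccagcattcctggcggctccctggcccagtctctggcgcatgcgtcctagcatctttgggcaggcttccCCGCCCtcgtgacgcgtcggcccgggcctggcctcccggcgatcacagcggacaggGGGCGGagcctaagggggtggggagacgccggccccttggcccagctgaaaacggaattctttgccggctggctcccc
CDKN2D, chr19:10568980-10569229, minus strand: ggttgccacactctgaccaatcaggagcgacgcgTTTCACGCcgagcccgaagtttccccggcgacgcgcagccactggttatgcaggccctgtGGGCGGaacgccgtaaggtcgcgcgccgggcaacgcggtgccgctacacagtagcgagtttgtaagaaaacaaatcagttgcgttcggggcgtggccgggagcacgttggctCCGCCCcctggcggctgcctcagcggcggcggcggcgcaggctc

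The 2 CDKN2A starts are 20.5 kb apart, and the upstream one lies 14.0 kb from the CDKN2B start. A set of 5 motifs was searched on both strands, namely the GC box GGGCGG, the E-box CACGTG, a loose E2F pattern TTTNNCGC, the AGGTCA element of retinoic acid receptors and the TATA box TATAAA. The capitals mark 1 GC box before the downstream CDKN2A start, 2 before CDKN2B, and 2 GC boxes and 1 E2F pattern before CDKN2D. The window before the upstream CDKN2A start held no listed motif. Among 35116 promoter windows of the same length, 42.6% held the GC box, 5.9% the E2F pattern, 6.3% the E-box, 12.1% the AGGTCA element and 10.7% the TATA box. The ratio of observed to expected CpG was 0.736 before the downstream CDKN2A start, 1.078 before the upstream one, 0.654 before CDKN2B and 1.157 before CDKN2D, against a median of 0.558 over all windows. The windows are a description of the loci and were tested against nothing.

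The arrays were centred and alike in the bulk of their probes, with medians within 0.0144 of 0 on the log2 scale and interquartile ranges of 0.154 to 0.155. Their tails were not alike. The span between the 1st and 99th percentiles was 0.74 to 0.99 on 9 arrays, whereas 3 arrays, here called wide, spanned 3.04 (3 h replicate 1, forward), 1.10 (3 h replicate 3, swapped) and 1.70 (0 h replicate 2, swapped). DNAJC2, the gene targeted by the hairpin, had log2 ratios of −1.62, −0.44 and −0.82 in the 3 h replicates and −0.58, −1.01 and −0.52 in the 0 h replicates. It was below 0 on 12 of 12 arrays, and the sign of the deposited ratios was settled from this gene together with the dyes in the labels. Over both times it averaged −0.83 ± 0.15 (SE, 6 replicates), 0.563-fold of control (limma adjusted p = 0.0150), and −0.53 without the 3 wide arrays. At 3 h alone DNAJC2 had −0.96 and passed (limma adjusted p = 0.0450). At 0 h alone it had −0.70 and did not pass (limma adjusted p = 0.137). The call over both times held in 11 of 16 alternative ways of processing, and the 3 h call in 7 of 17. Because only ratios were available, the levels of the 6 genes in these cells are unknown, and so is whether a probe stood above background. In these bulk samples a change in the number of cells that express a gene and a change in RNA per cell cannot be told apart.

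The largest ratios over both times were those of CDKN2A and CDKN2B, and they had opposite signs. CDKN2A was higher and CDKN2B lower in knockdown than in control cells, CDKN2D was slightly higher at 3 h, and CDKN1A was slightly lower when both times were averaged. CDKN1B and CDKN1C passed in none of the 4 comparisons as fitted. At 3 h, 3 of 6 genes passed an adjusted p of 0.05, with 2 higher and 1 lower, where 8.12% of all 30305 features tested did (4.47% higher and 3.65% lower). At 0 h, 1 of 6 passed, and it was lower, against 3.82% of all features (1.67% higher and 2.14% lower). For the mean of both times, 4 of 6 passed, 2 higher and 2 lower, against 15.6% of all features. These features include probes without a single symbol. Of the 18646 genes with a symbol alone, 9.80% passed at 3 h, 4.79% at 0 h and 19.0% over both times. In the difference between 3 h and 0 h, 0 of 6 passed in limma, as did 0.00% of all features, while CDKN2D of the 6 genes and 1739 of 30305 features had an unadjusted p under 0.05. The 3 h count was 1 without 3 h replicate 1 or 3, and 0 without 3 h replicate 2, 0 h replicate 1 or 0 h replicate 3. The 0 h count was 2 without 3 h replicate 1, and 0 without any 1 of the 0 h replicates. The count over both times was 2 without 3 h replicate 3, 0 h replicate 2 or 0 h replicate 3.

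**Figure D1:**
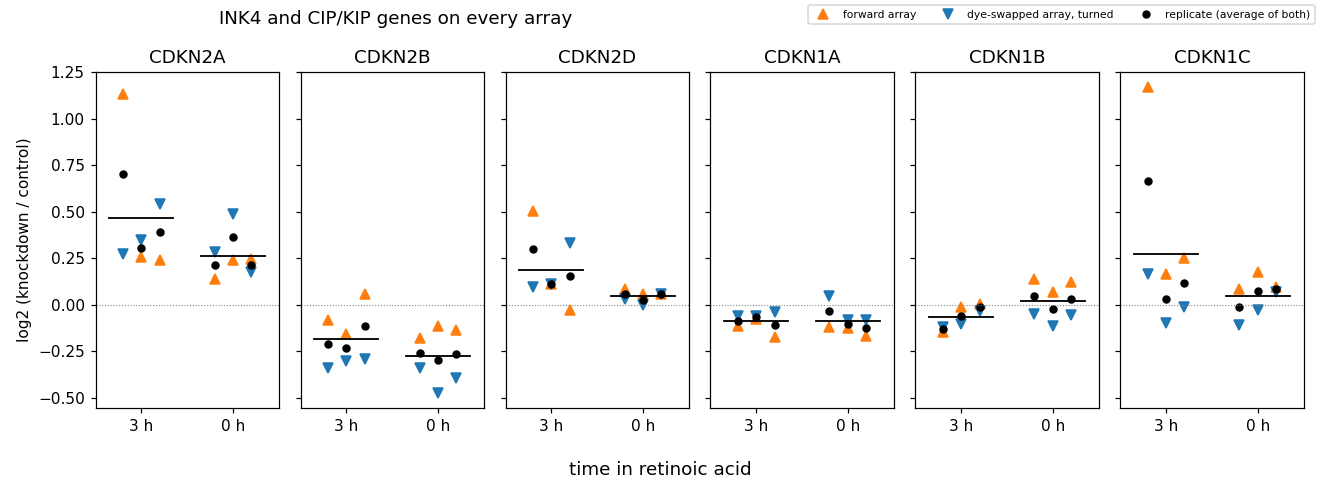
Log2 ratio of knockdown over control (vertical axis) for the 6 genes, with 3 h left of 0 h; triangles are single arrays by dye orientation, dots are replicate values, and bars are their means. CDKN2A lies above 0 on 12 of 12 arrays and CDKN2B below 0 on 11 of 12.

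CDKN2A encodes both p16INK4a, an inhibitor of CDK4 and CDK6, and ARF, which binds MDM2 and thereby stabilises p53. Its log2 ratios were 0.70, 0.30 and 0.39 in the 3 h replicates, against 0.21, 0.36 and 0.21 in the 0 h replicates. All 6 values were above 0, and the ranges of the times overlapped. At 3 h the mean was 0.47 (SD 0.210, n = 3), a 1.38-fold ratio with a 95% interval of 0.28 to 0.65 on the log2 scale, and it passed (limma adjusted p = 0.0234). At 0 h the mean was 0.26 (SD 0.0881, n = 3), and it did not pass (limma adjusted p = 0.122). The difference between the times, 3 h minus 0 h, was 0.20, with an interval of −0.05 to 0.46 (limma adjusted p = 0.717), so a larger ratio at 3 h was not shown.

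Averaged over both times, CDKN2A rose by 0.36 ± 0.05 on the log2 scale, 1.29-fold (limma adjusted p = 0.00830). It was above 0 on 12 of 12 arrays, which held for none of the other 5 genes and for 6.93% of all features on one side or the other. The forward array of 3 h replicate 1 gave 1.13, and the other 11 arrays gave between 0.14 and 0.54. Without the 3 wide arrays, of which this is the widest, single arrays were fitted with the replicate as a random block. The gene's ratio was then 0.28 at 3 h and 0.22 at 0 h, and both passed. That fit called 13.6% of all features at 3 h and 12.3% at 0 h. With all 12 arrays kept, the same model called 14.9% and 8.93%, so the change of model and the arrays left out cannot be told apart here. In the size of its change over both times CDKN2A exceeded 99.2% of features. Its call at 3 h did not hold when each time was fitted alone, nor without 3 h replicate 2, 3 h replicate 3, 0 h replicate 1 or 0 h replicate 3, with log2 ratios of 0.47 to 0.55.

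The 2 CDKN2A probes moved the same way by different amounts. Probe A_23_P43484 had log2 ratios of 0.81, 0.39 and 0.54 in the 3 h replicates, against 0.27, 0.52 and 0.30 in the 0 h replicates. Probe A_23_P43490 had 0.59, 0.21 and 0.24 at 3 h, against 0.16, 0.21 and 0.13 at 0 h. In every replicate the first probe gave the larger ratio. Over both times the ratios were 0.47 ± 0.06 (limma adjusted p = 0.00579) and 0.26 ± 0.05 (limma adjusted p = 0.0203). The annotation ties both probes to the same transcript record of CDKN2A but gives no probe sequences, so their share of p16INK4a and ARF transcripts was not tested.

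CDKN2B encodes p15INK4b, an inhibitor of the same kinases that is best known as a target of TGF-beta signalling. Its log2 ratios were −0.21, −0.23 and −0.11 in the 3 h replicates, against −0.26, −0.30 and −0.26 in the 0 h replicates. All were below 0, and the 3 h values all lay nearer to 0 than the 0 h values. At 3 h the mean was −0.18 (SD 0.0615, n = 3), 0.880-fold (limma adjusted p = 0.0209), and at 0 h it was −0.27 (SD 0.0189, n = 3), 0.827-fold (limma adjusted p = 0.0113). The gene was lower at both times, and it was the one of the 6 that passed at both. The difference of 0.09 between 3 h and 0 h, with an interval of −0.01 to 0.19, did not pass (limma adjusted p = 0.717). Over both times CDKN2B fell by 0.23 on the log2 scale (SE 0.02), to 0.853-fold (limma adjusted p = 0.00226). Leaving out 3 h replicate 1, 3 h replicate 2, 0 h replicate 1 or 0 h replicate 3 ended the 3 h call (−0.18 to −0.16), and the 0 h call did not hold without any 1 of the 0 h replicates (−0.28 to −0.26).

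The fall of CDKN2B rested mainly on 1 of its 2 probes. The annotation ties the 2 probes to different transcript records of the gene, and whether its transcripts differed in their change was not tested. Probe A_24_P360674 had log2 ratios of −0.44, −0.27 and −0.33 in the 3 h replicates, against −0.35, −0.46 and −0.39 in the 0 h replicates. It was below 0 on 12 of 12 arrays and passed at 3 h, at 0 h and over both times (−0.37 ± 0.03, limma adjusted p = 0.00166). Probe A_23_P216812 had 0.02, −0.19 and 0.10 at 3 h, against −0.17, −0.13 and −0.14 at 0 h. It passed in no comparison (−0.08 ± 0.04 over both times, limma adjusted p = 0.208), and its sign followed the dye orientation, at 0.08 on forward and −0.25 on swapped arrays. CDKN2A and CDKN2B are close paralogs, and hybridisation of one gene's RNA to the other's probes was not tested.

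CDKN2D encodes p19INK4d, an INK4 inhibitor whose RNA is known to vary over the cell cycle. Its log2 ratios were 0.30, 0.11 and 0.15 in the 3 h replicates, against 0.06, 0.03 and 0.06 in the 0 h replicates. Every 3 h value was above every 0 h value, yet the difference of 0.14, with an interval of 0.01 to 0.27, did not pass (limma adjusted p = 0.717). The gene rose at 3 h by 0.19 ± 0.04, 1.14-fold (limma adjusted p = 0.0359), and not at 0 h, where the ratio was 0.05 (limma adjusted p = 0.585). Over both times the ratio was 0.12 ± 0.03, and it passed (limma adjusted p = 0.0312). These calls rested in part on the wide arrays. In the fit on single arrays without them, the 3 h value was 0.07 (limma adjusted p = 0.125). The value over both times was 0.06 and still passed, where that fit called 22.8% of all features. The 3 h call also did not hold without any single replicate of either time, at log2 ratios between 0.13 and 0.23, and the call over both times did not hold without 3 h replicate 3 or any 1 of the 0 h replicates (0.12 to 0.13).

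**Figure D2:**
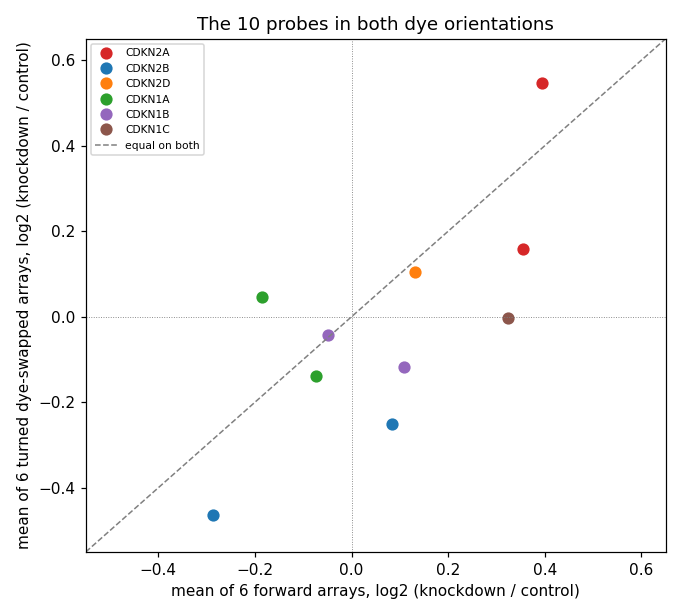
Mean log2 ratio of knockdown over control on the 6 forward arrays (horizontal axis) and on the 6 turned swapped arrays (vertical axis) for the 10 probes. Both CDKN2A probes are above 0 on both axes, 1 CDKN2B probe is below 0 on both, and probes of CDKN2B, CDKN1A, CDKN1B and CDKN1C change sign between orientations.

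Of the 3 CIP/KIP genes, 1 passed a test, CDKN1A, and that only over both times. It encodes p21, the inhibitor induced by p53. Its log2 ratios were −0.09, −0.07 and −0.11 in the 3 h replicates, against −0.04, −0.10 and −0.13 in the 0 h replicates. The values of the 2 times overlapped fully, with means of −0.09 at each time and a difference interval of −0.09 to 0.09. Neither time passed alone (limma adjusted p = 0.0859 at 3 h and 0.126 at 0 h). Over both times CDKN1A fell by 0.09 on the log2 scale (SE 0.02), to 0.941-fold (limma adjusted p = 0.0226), and it was below 0 on 11 of 12 arrays. Leaving out any 1 of replicates 2 and 3 of either time ended that call (−0.09 to −0.08). Probe A_23_P59210 passed over both times (−0.11, limma adjusted p = 0.0245), and probe A_24_P89457 did not (−0.07, limma adjusted p = 0.0711), with −0.19 on forward and 0.05 on swapped arrays.

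CDKN1B encodes p27, whose abundance is known to be set largely by protein turnover. Its log2 ratios were −0.13, −0.06 and −0.01 in the 3 h replicates, against 0.05, −0.02 and 0.03 in the 0 h replicates. The values of the times overlapped, and the ratio over both, −0.02 ± 0.02 with an interval of −0.07 to 0.03, did not pass (limma adjusted p = 0.507). Probe A_24_P81841 averaged 0.11 on forward and −0.12 on swapped arrays, while probe A_23_P204696 averaged −0.05 and −0.04 on them.

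CDKN1C encodes p57, an imprinted gene expressed from the maternal allele. Its log2 ratios were 0.67, 0.03 and 0.12 in the 3 h replicates, against −0.01, 0.07 and 0.08 in the 0 h replicates. The first 3 h replicate stood apart, and within it the forward array gave 1.17 and the swapped array 0.16. The 3 h mean of 0.27 (SD 0.344, n = 3) did not pass (limma adjusted p = 0.188), nor did the 0 h mean of 0.05 (SD 0.0536, n = 3; limma adjusted p = 0.880). Without 3 h replicate 1 the 3 h value was 0.08. Its single probe averaged 0.32 on forward arrays and −0.00 on swapped arrays.

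By probe, 5 of 10 passed over both times, 3 higher and 2 lower, where 15.4% of 41000 probes did (7.91% higher and 7.48% lower). At 3 h, 4 probes passed, against 7.79% of all probes, and at 0 h 1 probe passed, against 3.05%. Sign was steady for 4 of 6 genes, CDKN2A, CDKN2B, CDKN2D and CDKN1A, which had all 6 replicates on one side of 0, as did 22.4% of all features. CDKN2A and CDKN2B had opposite signs in all 6 replicates. Forward and swapped arrays gave CDKN2A means of 0.37 and 0.35, and gave CDKN2B −0.10 and −0.36. The CDKN2A forward mean includes the 1.13 of 3 h replicate 1. Its forward and swapped means were 0.54 and 0.39 at 3 h, and 0.21 and 0.32 at 0 h. The CDKN2A probes differed by orientation in opposite directions. Probe A_23_P43484 had 0.39 on forward and 0.55 on swapped arrays, and probe A_23_P43490 had 0.36 and 0.16. With forward arrays alone no call of CDKN2A or CDKN2B held.

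**Figure D3:**
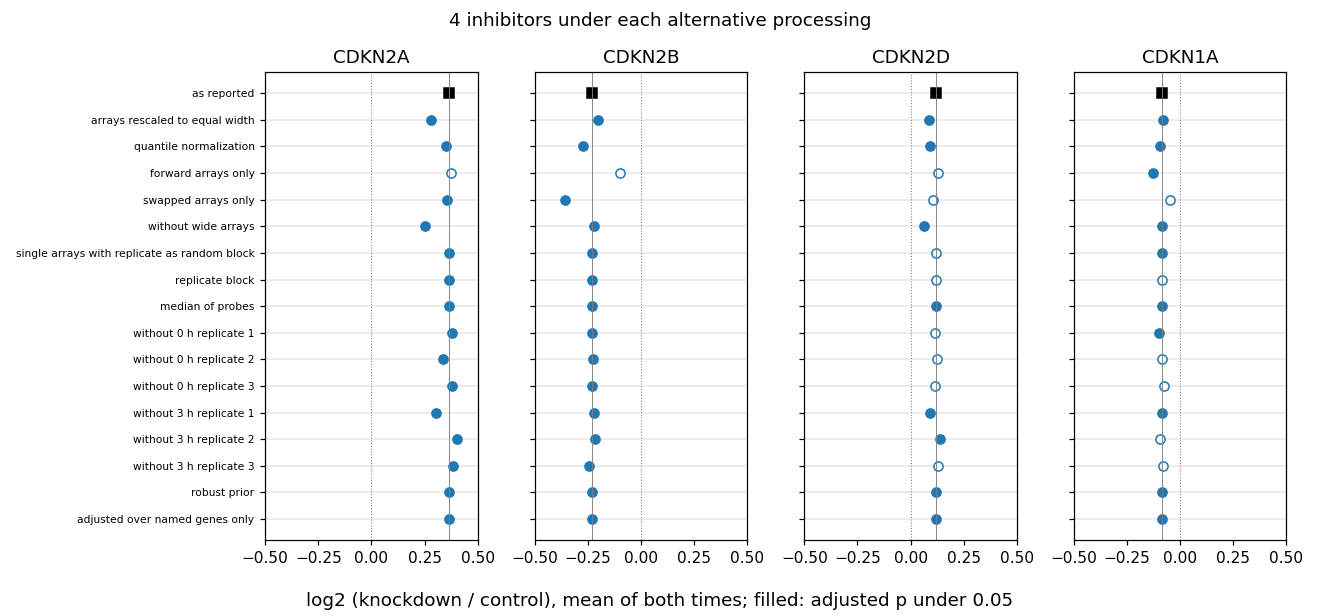
Log2 ratio of knockdown over control over both times (horizontal axis) for the 4 inhibitors that passed, 1 row per way of processing, with filled points where the adjusted p was under 0.05 and a line at the reported value. CDKN2A stays above 0 (0.25 to 0.40) and CDKN2B below 0 (−0.36 to −0.10) in the alternatives shown.

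Genes of the pathway around the inhibitors were read from lists in the same fit, over both times, where 19.0% of the 18646 genes with a symbol passed (9.54% higher and 9.46% lower) and their median ratio was 0.00. Of 14 D-type and E-type cyclins and their kinases, 3 were higher and 0 lower, with a median of 0.05. They were CCND2 (0.24 ± 0.04, limma adjusted p = 0.0109), a D-type cyclin, CDK6 (0.12 ± 0.02, limma adjusted p = 0.00991), the kinase that INK4 proteins bind, and CDC25A (0.11 ± 0.03, limma adjusted p = 0.0413), a phosphatase that activates CDK2. CDC25A rested on the swapped arrays, with −0.03 on forward and 0.25 on swapped arrays. CDK6 was also the one list member that passed at 0 h (0.14), and none passed at 3 h.

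Downstream of the kinases, 2 of 13 pocket proteins and E2F factors were higher and 0 lower (median 0.04). They were E2F1, an activating E2F, at 0.15 ± 0.03 (limma adjusted p = 0.0158), and its partner TFDP1 at 0.13 ± 0.02 (limma adjusted p = 0.0142). By orientation E2F1 had 0.05 on forward and 0.24 on swapped arrays, and TFDP1 had 0.19 on forward and 0.07 on swapped arrays. Of 23 measured S phase and mitosis genes, 2 were higher and 1 lower (median 0.01), a share of 13.0%. CDK1, the mitotic kinase, was higher at 0.20 ± 0.03 (0.04 on forward and 0.35 on swapped arrays), as was the replication licensing factor CDC6 at 0.08 ± 0.02, while the mitotic kinase PLK1 was lower at −0.09 ± 0.02. The sign of CDC6 turned with the orientation (−0.03 on forward and 0.20 on swapped arrays), and PLK1 had −0.16 on forward and −0.01 on swapped arrays. The share of these 23 genes that passed, 13.0%, stands beside 19.0% of all genes with a symbol, and no test of the list was made.

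ARF acts through MDM2 and p53, and CDKN1A is a p53 target, so the p53 arm was read as well. Of 21 measured genes, 1 was higher and 7 lower, with a median of −0.10, and 38.1% passed. DDB2, a DNA damage recognition factor, had −0.40 ± 0.08 (limma adjusted p = 0.0217), and TP53INP1, a p53-induced stress protein, had −0.36 ± 0.06 (limma adjusted p = 0.00929). TP53I3 had −0.16 ± 0.02 and the apoptosis effector BAX −0.13 ± 0.03. BAX had −0.29 on forward and 0.04 on swapped arrays. PLK2, a p53-induced kinase, was the 1 higher gene, at 0.11 over both times and 0.20 at 3 h. At 0 h PLK2 had 0.03 and did not pass, nor did its difference of 0.17 between 3 h and 0 h. Without the 3 wide arrays 14 of the 21 genes were lower and 1 higher, where that fit called 22.8% of all features. With swapped arrays alone 7 were lower and 3 higher, where 29.7% of all features were called.

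Of 24 measured Polycomb genes and genes described as opposing them at the INK4 and ARF locus, 2 were higher and 3 lower, DNAJC2 itself among the lower (median −0.01). EZH2, the methyltransferase of Polycomb repressive complex 2, was higher at 0.14 ± 0.02 (limma adjusted p = 0.00893; 0.22 on forward and 0.05 on swapped arrays), and its paralog EZH1 was lower at −0.12 ± 0.03 (limma adjusted p = 0.0276). KDM6A, a demethylase of the same histone mark, was higher at 0.19 ± 0.03 (limma adjusted p = 0.0115), and at 0.12 on forward arrays and without the 3 wide arrays. Of 27 transcription factors described at these promoters, 7 were higher and 3 lower (median 0.01). HEY1, a Notch-responsive repressor, had 0.83 ± 0.05, 1.78-fold (limma adjusted p = 0.000764), with 0.83 at both 3 h and 0 h. TBX3, a repressor of the ARF promoter, had 0.26 ± 0.03, and MYC, a repressor of CDKN2B and CDKN1A together with the protein of ZBTB17, had 0.15 ± 0.02 (0.10 with the median of its probes). ZBTB17 itself had −0.17 ± 0.04 (−0.29 on forward and −0.04 on swapped arrays, and −0.11 without the 3 wide arrays).

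The retinoic acid receptor gene RARB, a direct retinoic acid target, was higher in knockdown cells at 3 h by 0.20 ± 0.03 (limma adjusted p = 0.0232), with 0.30 on forward and 0.10 on swapped arrays. At 0 h, without retinoic acid, its ratio was 0.10 and did not pass. The difference of 0.10 between 3 h and 0 h did not pass either, so a larger ratio at 3 h was not shown. Over both times RARB had 0.15 and passed, with 0.24 on forward and 0.06 on swapped arrays. Of 17 genes for the turnover and transport of CIP/KIP proteins, 3 were higher and 0 lower (median 0.00). They were DTL (0.16 ± 0.04), which directs p21 to degradation in S phase, the ubiquitin ligase scaffold CUL1 (0.15 ± 0.03) and the F-box protein gene FBXL12 (0.13 ± 0.02). Without the 3 wide arrays CUL1 had 0.10 and FBXL12 0.08, and on forward arrays FBXL12 had 0.07.

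**Figure D4:**
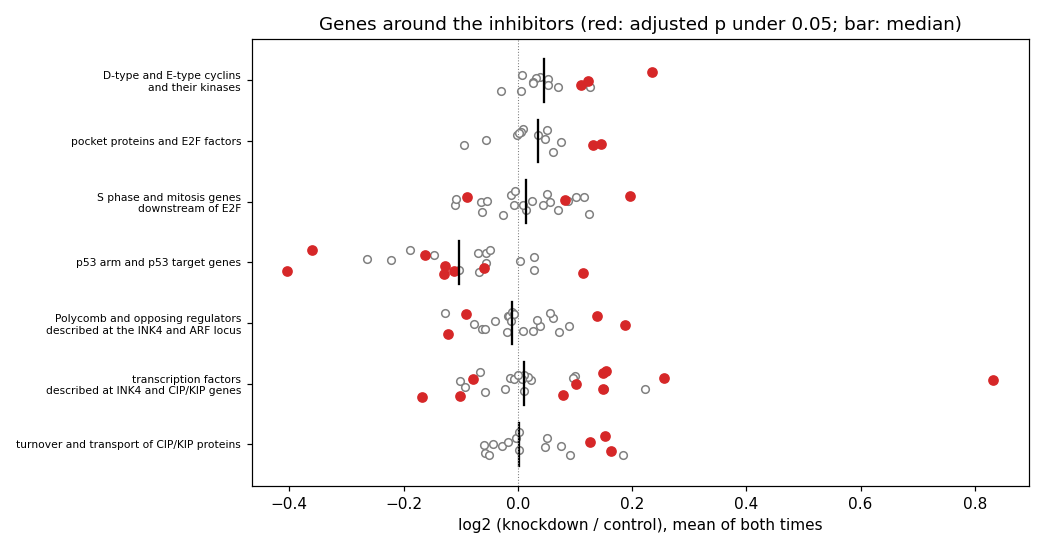
Log2 ratio of knockdown over control over both times for every measured gene of 7 lists around the inhibitors, 1 row per list, with red points where the adjusted p was under 0.05 and a bar at the list's median; DNAJC2 is not drawn. The p53 arm has the lowest median, −0.10, and HEY1 at 0.83 is the farthest point.

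Some markers of cell types also passed the test between knockdown and control cells, where 19.0% of all genes with a symbol did over both times. By list, 1 of 10 pluripotency markers was lower and 0 higher, 5 of 12 fibroblast markers were higher and 2 lower, 2 of 8 neural markers were higher and 2 lower, and 4 of 10 epithelial and trophoblast markers were higher and 2 lower. Their medians were −0.07, 0.05, −0.05 and 0.02. The pluripotency list named CRIPTO by its former symbol TDGF1, so its counts, median and array means leave this gene out. CRIPTO had log2 ratios of 0.65, 0.28 and 0.37 in the 3 h replicates, against 0.23, 0.32 and 0.24 in the 0 h replicates. On single arrays the mean of the pluripotency list lay between −0.43 and 0.06 at 3 h, against −0.14 and 0.13 at 0 h, and that of the fibroblast list between −0.07 and 0.08 at 3 h, against −0.01 and 0.10 at 0 h. The epithelial list ranged from −0.00 to 0.13 at 3 h, against −0.03 to 0.17 at 0 h. The neural list ranged from −0.20 to 0.01 at 3 h, against −0.05 to 0.01 at 0 h. The part of these lists in the ratios of the inhibitors was not tested.

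The genes around each inhibitor were examined for shared shifts. Distances were taken between the lower coordinates of the genes, whatever their strand. Within 1 Mb of CDKN2A, 17 genes were measured, of which 1 was higher, HACD4 (0.09 ± 0.02), and 1 lower, DMRTA1 (−0.10 ± 0.02), with a median of 0.02. Neither kept its sign in both orientations, with 0.17 on forward and −0.0026 on swapped arrays for HACD4 and 0.0093 on forward and −0.20 on swapped arrays for DMRTA1. MTAP, which lies beside CDKN2A, had −0.06 ± 0.03 (limma adjusted p = 0.220), and CDKN2A-AS1 had 0.02 ± 0.04 (limma adjusted p = 0.826). CDKN2B-AS1, the antisense transcript also called ANRIL, was not analysed here. CDKN2A and CDKN2B were the genes of this interval with the largest ratios among those measured.

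Around CDKN2D, 57 genes were measured, of which 12 were higher and 3 lower, with a median of 0.05. The largest were the adhesion molecule genes ICAM3 (0.51 ± 0.05) and ICAM1 (0.35 ± 0.05) and the Ras effector gene RGL3 (−0.50 ± 0.02). The share of called genes there, 15 of 57, stands beside 19.0% of all genes with a symbol. Within 5 Mb the median was 0.01.

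Within 1 Mb of CDKN1A, 1 of 27 genes was higher, CCDC167 (0.21 ± 0.03), and 1 lower, STK38 (−0.07 ± 0.01). CCDC167 had 0.14 on forward and 0.28 on swapped arrays, and STK38 had −0.11 on forward and −0.02 on swapped arrays. Around CDKN1B, 2 of 19 were higher and 2 lower, among them APOLD1 (0.32 ± 0.04), whose lower coordinate lies 8.5 kb from that of CDKN1B, EMP1 (−0.29 ± 0.05) and GPR19 (−0.16 ± 0.03). Around CDKN1C, 0 of 31 were higher and 4 lower. These included the imprinted growth factor gene IGF2 (−0.30 ± 0.04, limma adjusted p = 0.00787), the tRNA synthetase gene CARS1 (−0.27 ± 0.05) and ASCL2 (−0.16 ± 0.02), a transcription factor of the trophoblast. By orientation, APOLD1 had 0.45 on forward and 0.18 on swapped arrays, IGF2 −0.40 and −0.20, and CARS1 −0.48 and −0.05.

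**Figure D5:**
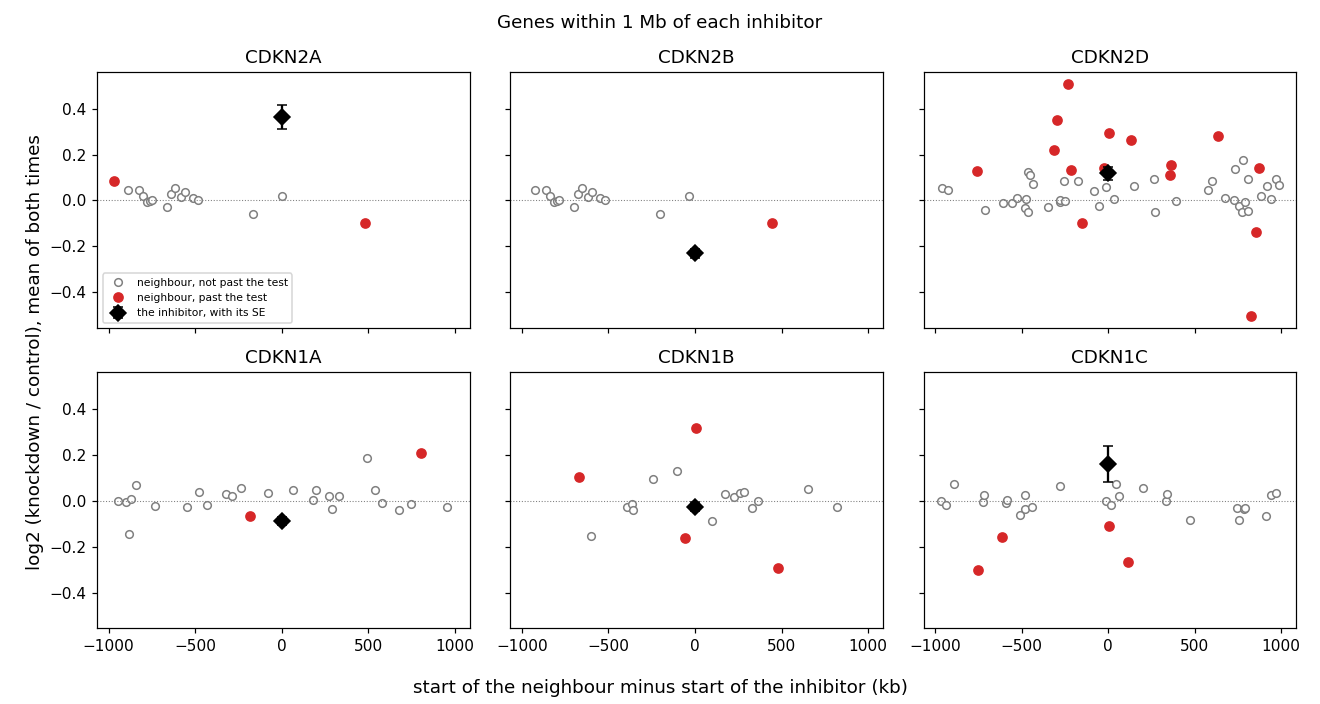
Log2 ratio of knockdown over control over both times for measured genes within 1 Mb of each inhibitor, by distance in kb, with red points where the adjusted p was under 0.05 and the inhibitor marked at 0. Distance is between the lower coordinates of the genes, whatever their strand. Near CDKN2A and CDKN2B most points lie close to 0, and RGL3 (−0.50) and ICAM3 (0.51) stand out near CDKN2D.

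The genes most like each inhibitor that passed a test were named by Euclidean distance over the 6 replicate log2 ratios, as a description over samples that share controls, arrays and hybridisations. Nearest to CDKN2A were GNB4 at a distance of 0.0634, CRIPTO at 0.0787 and NPPB at 0.0977. Nearest to CDKN2B were TCEA2 at 0.0796, NGFR at 0.101 and ARRDC2 at 0.105. ANXA7, PUDP and ETFA were nearest to CDKN2D, at 0.0400, 0.0574 and 0.0574, and CEP97, SET and ZNF141 to CDKN1A, at 0.0477, 0.0505 and 0.0516. No inhibitor was among the 3 nearest genes of another. By likeness to CDKN2A among genes with a symbol, CDKN1C ranked 389th, CDKN2D 780th, CDKN1B 14009th, CDKN1A 15720th and CDKN2B 17956th.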

How the data were processed

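Total RNA of knockdown and control cells (500 ng per labelling, per the labels' protocols) was hybridised on 12 Agilent 2-colour arrays. The deposited values are signed fold scores of Cy5 over Cy3, in which a ratio below 1 is written as its negative inverse; the authors made them with limma, per the submitters' processing notes, and its version and normalization are not given in the sources used here. Arrays have no read depth, and 12 of them set how precise a value can be.

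Each score was converted to log2, swapped arrays were turned, probes of a gene were averaged, and the forward and swapped arrays of a replicate were averaged into 6 replicate values. The direction rests on the labels' dyes and on DNAJC2. limma 3.58.1 in R 4.3.3 fitted 1 mean per time over the 6 values (4 residual degrees of freedom), and p-values were adjusted by Benjamini-Hochberg over 30305 features, namely 18646 genes with a symbol and the probes without a single symbol on their own, or over 41000 probes. The 78 control features were left out. Errors after ± are limma standard errors. Fits were tested on simulated data.

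The inhibitors, lists, tests and alternatives were chosen with earlier results of these data known. Named genes are the 6 inhibitors and their probes, DNAJC2, up to 4 called genes per list and comparison with the largest log2 ratios, the 3 nearest genes per called inhibitor, up to 3 called neighbours per inhibitor, and MTAP and CDKN2B-AS1; CDKN2A-AS1 and the value of PLK2 over both times are named outside that rule, after a look at their values. The alternatives comprised rescaled or quantile-normalized arrays, 1 dye orientation, leaving out 1 replicate or the 3 wide arrays (fitted on single arrays), single arrays with the replicate as a random block, each time alone, the median of probes, a robust prior, a replicate block, and adjustment over named genes alone, the last chosen after seeing the data.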

Additional observations from a re-analysis of the deposited data

Results flagged for a closer look

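In 2 of 12 groups of 6 arrays (6 genes at 2 times), 1 array lay farther from the others than Dixon's 95% criterion allows; chance flags about 1 in 20 groups. Both were the forward array of 3 h replicate 1, the array with the widest tails. For CDKN2A it gave a log2 ratio of 1.13, with the other 3 h arrays between 0.24 and 0.54. For CDKN1C it gave 1.17, with the other 3 h arrays between −0.10 and 0.25. The part of this array's wide tails in both values was not tested.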

How the results depend on the processing

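Over both times CDKN2A passed in 15 of 16 alternatives (0.25 to 0.40) and CDKN2B in 15 of 16 (−0.36 to −0.10); each lost its call with forward arrays alone (limma adjusted p = 0.0823 and 0.0758). CDKN2D passed in 8 of 16, CDKN1A in 10 of 16, CDKN1B in 1 of 16 (swapped arrays, −0.079, limma adjusted p = 0.0360) and CDKN1C in 1 of 16 (rescaled arrays, 0.099, limma adjusted p = 0.0438). These tallies include the median of probes, which cannot change the ratio of an inhibitor, because each has only 1 or 2 probes. They also include the robust prior, which called 4719 features over both times against 4721 as reported. Counts of called genes at 3 h, 3 as reported, were 0 with forward arrays and with each time fitted alone and 0 to 2 without single replicates. At 0 h, 1 as reported, the count was 0 with forward arrays, 2 with rescaled, quantile-normalized, swapped or single arrays, without the wide arrays and with each time alone, and 0 to 2 without single replicates. Over both times, 4 as reported, it was 1 with forward arrays and 2 to 4 without single replicates; of probes, 5 as reported, it was 2 with forward arrays and 2 to 5 without single replicates. The cause of these moves was not tested, beyond the fewer samples when replicates are left out.

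Some ratios turned. With swapped arrays CDKN1B had −0.073 and CDKN1C −0.023 at 0 h, and CDKN1C −0.0029 over both times; with forward arrays CDKN1B had 0.030 over both times. The CDKN1A difference of 3 h minus 0 h was 0.0041 with rescaled arrays, 0.014 with forward arrays, and −0.020 to 0.026 without single replicates. That of DNAJC2, −0.26 as reported, was 0.039 with quantile normalization, 0.20 with swapped arrays, 0.036 without the wide arrays, and −0.52 to 0.071 without single replicates.

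Deviations from the group means correlated by 0.02, 0.00 and −0.30 between replicates of the same number at the 2 times, so the numbers are not taken to pair the samples. Pairing under other numbers, as by collection day, was not tested, and the reported fit treats the 6 values as independent. Across genes, 0 h replicate 3 and 3 h replicate 2 correlated by 0.58, against 0.25 to 0.52 between replicates of the same time. With the replicate number as a block, 2 of 6 genes passed over both times (CDKN2A and CDKN2B), 2 of 10 probes, 0 at 3 h and 0 at 0 h; over all features it called 1132 over both times and 0 at 3 h and at 0 h, where 6494 and 4311 had an unadjusted p under 0.05. The p53 arm then had 0 of 21 genes called. Over all features the other alternatives called 0 to 4522 at 3 h (2460 as reported), 0 to 5335 at 0 h (1157 as reported) and 2106 to 8993 over both times (4721 as reported).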
